A study of Mus musculus with 66 samples.

Results

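The genes described here encode ATP-dependent chromatin remodellers, the enzymes that slide, eject or exchange nucleosomes, and subunits of their complexes. They are the 48 gene symbols of the deposited count table, of 30084, that begin with Chd, Smarc, Arid, Ino80, Actl6 or Dpf or are Hells, Atrx, Bptf, Srcap or Ep400. Chd7, Chd8 and Chd9 were left out by the rule, and Chd8 is itself a knockdown target. The rule picks members by name only, but it was set with earlier results of these data known. Of the members, 45 fall into 6 classes by complex or domain, and the other 3 are an antisense RNA and pseudogenes (Ino80dos, Smarca5-ps, Smarce1-ps1). After a filter on low counts 47 were tested, and Arid3c, with 0 to 18 counts per library, was not.

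Neurons came from wildtype mouse embryos at E16.5 (the E stands for embryonic day), and males and females were cultured separately. The knockdowns used lentiviral short hairpin RNAs (shRNAs), small transcripts that cause decay of a matching mRNA. Cultures were rid of the virus by washing on day 6, and RNA was taken on day 10. The shRNAs were against Ash1l, Kmt2c and Setd5 (SET domain proteins of the histone methyltransferase type), Kdm6b (a histone demethylase), Dnmt3a (a DNA methyltransferase), Mbd5 (a methyl-CpG-binding domain protein), Tbr1 (a transcription factor of deep-layer cortical neurons), Med13l (a subunit of the Mediator kinase module) and Chd8 (a CHD remodeller). Control cultures received a nontargeting shRNA or no virus. Each of these 11 treatments has 3 male and 3 female libraries of polyadenylated RNA, 66 in all. All cells are wildtype, so a knockdown is partial: per the labels, virus doses were set to leave about 50% of the target. The labels give neither the number of hairpins per target nor separate cultures for the 3 wells of a group, so p-values measure the spread between these libraries, which may be technical.

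BAF complexes (mammalian SWI/SNF) are built around the ATPase Smarca4 or Smarca2 on a core that holds Smarcc1 and Smarcc2, and they move and evict nucleosomes. As neural progenitors become neurons, BAF exchanges subunits: Actl6a gives way to Actl6b, Dpf2 to Dpf1 and Dpf3, and the share of Smarcc2 relative to Smarcc1 rises. CHD proteins carry chromodomains, and Chd3, Chd4 and Chd5 are the ATPases of the deacetylase complex NuRD. The ISWI ATPases Smarca1 and Smarca5 space nucleosomes, Ino80, Srcap and Ep400 lead complexes that handle the histone variant H2A.Z, and Atrx deposits a histone variant at heterochromatin.

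Totals ran from 13759741 to 66558546 counts per library, with a median of 31827840. The mRNA of every target was lower than in nontargeting cells of the same sex, at 22.3% to 54.3% of the control mean in the 18 groups, and 15 of these differences passed the test. In 2 libraries the target went against the label. The library labelled Setd5 male 1 held 141 CPM of Setd5 (counts scaled to an equal library total), against 42.9 and 42.7 in its group and 133 to 149 in the controls. The library labelled Kdm6b male 1 held 39.9 CPM of Kdm6b, against 17.2 in both others of its group, and 44.9 CPM of Setd5. In turn the library labelled Setd5 male 1 held 23.1 CPM of Kdm6b, against 47.2 and 62.6 in its group and 55.1 to 64.9 in the controls. Each thus held the lower level of the other's target, as it would if the 2 were exchanged. The labels were kept, so the Setd5 male mean (54.3%), the Kdm6b male mean (41.4%) and the few genes called in both male groups rest on these labels. No member was called in either male group with or without these libraries. Summed over 5 neuron markers (Rbfox3, Tubb3, Map2, Snap25 and Syt1), nontargeting libraries held 4756 to 5415 CPM. Astrocyte markers summed to 59.1 to 115 CPM and microglia markers to 0.945 to 2.56 CPM.

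The promoters of 4 members are shown first, because these genes kept their calls in both sexes of a knockdown under all alternatives tried. Each window runs from 250 bases before to 50 bases after the RefSeq start in GRCm38.p6, the build that the submitters' processing notes call mm10. Smarcc1 is at chr9:110131774-110132073 on the plus strand and Smarcc2 at chr10:128458986-128459285 on the plus strand. Smarcal1 is at chr1:72583001-72583300 on the plus strand and Chd6 at chr2:161109037-161109336 on the minus strand. By GENCODE release M21 the Smarcc1 gene starts at chr9:110117708, upstream of its RefSeq window, which thus lies inside that gene. Capitals mark matches on either strand to the ETS core CCGGAAG, the CCAAT box CCAAT or the GC box GGGCGG. These motifs do not overlap one another in the 4 windows.
Smarcc1: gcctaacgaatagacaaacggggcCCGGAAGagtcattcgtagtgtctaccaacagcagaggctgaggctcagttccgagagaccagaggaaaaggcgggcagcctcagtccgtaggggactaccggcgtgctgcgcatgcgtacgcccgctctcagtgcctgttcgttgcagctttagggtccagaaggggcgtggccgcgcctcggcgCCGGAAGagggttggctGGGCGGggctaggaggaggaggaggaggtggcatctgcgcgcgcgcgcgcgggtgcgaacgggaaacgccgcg
Smarcc2: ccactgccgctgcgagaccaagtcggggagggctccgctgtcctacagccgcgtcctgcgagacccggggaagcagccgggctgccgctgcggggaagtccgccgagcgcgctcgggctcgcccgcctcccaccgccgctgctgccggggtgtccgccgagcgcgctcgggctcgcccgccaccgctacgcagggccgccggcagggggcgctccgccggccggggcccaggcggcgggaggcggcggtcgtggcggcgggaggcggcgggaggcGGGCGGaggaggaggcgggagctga
Smarcal1: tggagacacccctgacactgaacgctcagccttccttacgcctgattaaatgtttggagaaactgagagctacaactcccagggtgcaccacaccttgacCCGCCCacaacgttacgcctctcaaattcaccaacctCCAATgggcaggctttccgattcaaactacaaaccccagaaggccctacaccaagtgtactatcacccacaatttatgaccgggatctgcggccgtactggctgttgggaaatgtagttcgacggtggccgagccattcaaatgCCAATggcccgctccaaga
Chd6: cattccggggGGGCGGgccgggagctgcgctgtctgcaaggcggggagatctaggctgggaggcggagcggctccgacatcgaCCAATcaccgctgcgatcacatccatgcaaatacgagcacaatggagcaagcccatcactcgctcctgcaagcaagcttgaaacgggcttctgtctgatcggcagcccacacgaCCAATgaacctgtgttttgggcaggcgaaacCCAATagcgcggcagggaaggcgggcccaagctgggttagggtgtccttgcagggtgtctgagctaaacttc
Smarcc1 held 2 ETS cores and 1 GC box, Smarcc2 1 GC box, Smarcal1 2 CCAAT boxes and 1 GC box, and Chd6 3 CCAAT boxes and 1 GC box. The 4 windows differed in base composition: G and C made up 66% of the Smarcc1 window, 81% of the Smarcc2 window, 53% of the Smarcal1 window and 61% of the Chd6 window, against a median of 52.7% over 32851 mouse promoters. Smarcc1 and Smarcc2, whose mRNAs went opposite ways, both lie in windows dense in CpG, with 33 and 48 against a median of 7. Of 44 promoters of 37 members, 34 (77.3%) held the GC box against 35.7% of all promoters. All promoters were not matched to those of members for base composition, and its part in this difference was not tested. The CCAAT box was in 16 (36.4%) against 37.4%, and the ETS core in 4 (9.09%) against 8.86%. The Chd1l window, the fifth gene of this kind, held none of the 3 motifs and is not shown. These are letter matches in fixed windows.

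In nontargeting neurons the member mRNAs ranged from 76.7 for Chd3 to 0.0359 for Arid3c per exon length. Levels in the rest of this paragraph are RPKM, which is CPM divided by exon length in kilobases (mean ± SD, n = 6), with exon lengths from GENCODE release M21 for GRCm38, whose gene coordinates are also used below. Among the ATPases Chd3 was highest at 76.7 ± 5.63, and Smarca4 (41.9 ± 6.20) and Chd5 (37.0 ± 5.14), a CHD protein enriched in neurons, overlapped with each other below it. Smarca2 followed at 17.5 ± 1.17. Chd4 at 15.2 ± 2.52, Smarca1 at 14.6 ± 1.18 and Atrx at 13.5 ± 1.11 lay within each other's spread. Smarca5 stood at 8.58 ± 0.453 and Smarcal1, an annealing helicase that acts at stalled replication forks, at 7.79 ± 0.560. Ep400 (6.10 ± 1.13), Chd2 (5.62 ± 1.14), Chd1 (5.61 ± 0.233), Chd6 (4.92 ± 0.492) and Ino80 (4.84 ± 0.905) overlapped as well. Smarcad1 lay at 3.57 ± 0.214. The lowest ATPases were Chd1l, which remodels chromatin at DNA breaks, at 0.904 ± 0.135, Hells, a remodeller of dividing cells, at 0.595 ± 0.101, and Srcap at 0.324 ± 0.0834. Srcap shares 61.7% of its exon bases with another annotated gene on the same strand, Gm42715, and how such reads were counted is not given in the sources used here.

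**Figure D1:**
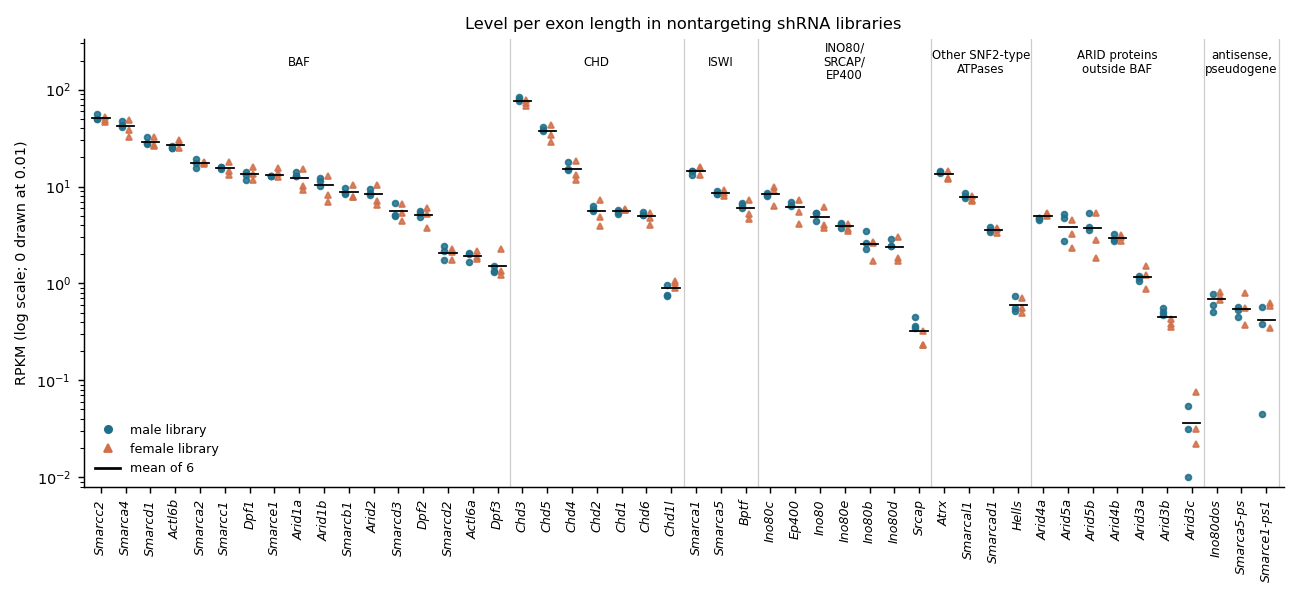
Level per exon length (RPKM, log scale) of all 48 members in the 6 nontargeting shRNA libraries, grouped by class. Points are single libraries (circles male, triangles female) and bars are means of 6; Chd3 is highest at 76.7 and Arid3c lowest at 0.0359.

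Of the subunits that BAF exchanges, Actl6b, Dpf1 and Smarcc2 were above their paralogues and Dpf3 and Smarcd3 below. In the 12 control libraries Actl6b was 11.7 to 18.3 times Actl6a per exon length (median 14.0). Dpf1 was 1.92 to 4.01 times Dpf2 (median 2.65), while Dpf3 was 0.232 to 0.441 times Dpf2. Smarcc2 was 2.91 to 4.03 times Smarcc1 (median 3.26). Smarcd3 was 0.127 to 0.295 times Smarcd1. Smarcd3 shares 48.2% of its exon bases with genes on the opposite strand, and the counting's strand setting is not given in the sources used here. Smarca4 was 1.47 to 3.14 times Smarca2 and Smarca5 0.511 to 0.699 times Smarca1.

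Over the 18 comparisons of a knockdown with nontargeting cells of the same sex, members were called with 2 of the 9 targets. With edgeR's quasi-likelihood test and a Benjamini-Hochberg adjusted p of at most 0.05 over 16145 genes, 25 of 846 member tests passed, in the male and female comparisons of Chd8 and Med13l shRNA. These involved 14 of the 47 members. For all genes the share called in any comparison is not given here, so this count is not read as a trait of the members. Chd8 shRNA changed 5 members in males (2 rose, 3 fell; 10.6% of members, where 9.82% of all genes were called) and 7 in females (4 rose, 3 fell; 14.9%, against 9.33%). Med13l shRNA changed 5 in males (2 rose, 3 fell; 10.6%, against 8.06%) and 8 in females (3 rose, 5 fell; 17%, against 10.2%). By direction, 3.64% of all genes rose and 6.18% fell in Chd8 males, and 3.34% rose and 5.99% fell in Chd8 females. In Med13l males 3.14% of all genes rose and 4.92% fell, and in Med13l females 4.74% rose and 5.49% fell. The median member log2 fold change was -0.02 and 0.05 with Chd8 shRNA and -0.01 and -0.04 with Med13l shRNA, and over all genes it was between -0.01 and 0.01. The shares of members called lie near those of all genes or a few points above, and the members moved in both directions with no common shift.

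**Figure D2:**
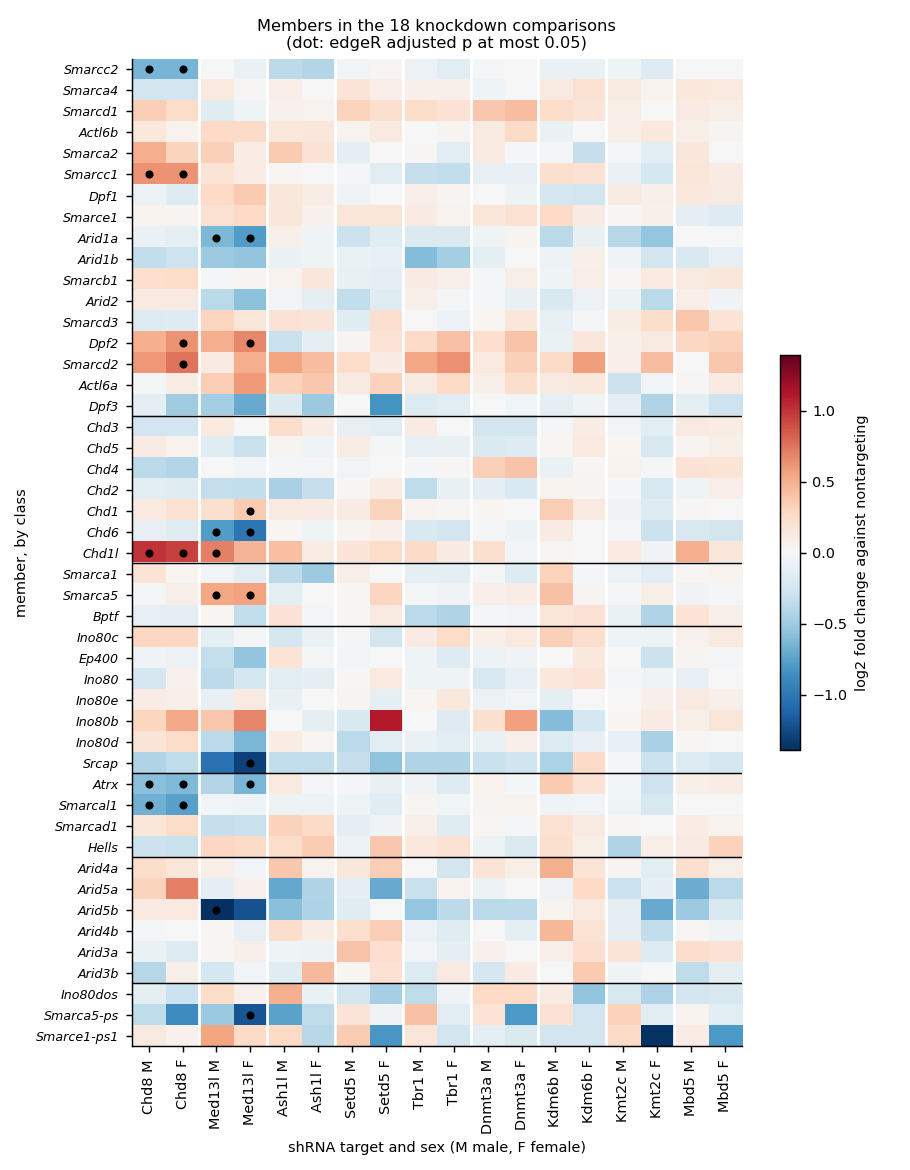
Log2 fold change of the 47 tested members (rows, by class) in each of the 18 comparisons with nontargeting cells of the same sex (columns). Dots mark the 25 tests with an edgeR adjusted p of at most 0.05, which all lie in the Chd8 and Med13l columns.

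With Chd8 shRNA, Smarcc1 rose and Smarcc2 fell in both sexes. Smarcc1 (chr9:110117708-110240178) and its paralogue Smarcc2 (chr10:128459248-128490482) are the scaffold subunits that pair up at the base of BAF. In nontargeting cells Smarcc1 stood at 119, 125 and 126 CPM in males and 104, 139 and 112 in females. With Chd8 shRNA it stood at 196, 173 and 200 in males and 198, 175 and 175 in females. All 6 Chd8 libraries lay above all 6 nontargeting libraries. Its log2 fold change was 0.62 (SE 0.127) in males and 0.62 (SE 0.127) in females, with edgeR adjusted p of 5.5e-04 and 5.2e-04.

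Smarcc2 went the other way by a like amount. It measured 277, 279 and 313 CPM in nontargeting males and 269, 288 and 258 in nontargeting females. With Chd8 shRNA it measured 176, 174 and 203 in males and 156, 188 and 174 in females, again without overlap. Its log2 fold change was -0.65 (SE 0.116) in both sexes, with an edgeR adjusted p of 6.7e-05 in each.

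The balance between the paralogues therefore set the Chd8 libraries apart. Per exon length, Smarcc2 was 1.27, 1.42 and 1.44 times Smarcc1 in Chd8 males and 1.11, 1.51 and 1.4 times in Chd8 females. In the other 60 libraries the ratio ran from 2.22 to 4.58 (median 3.16), and 0 of them reached down to 1.51. The group means lowest after Chd8 were those of Ash1l, 2.40 ± 0.229 in females and 2.52 ± 0.107 in males (SD, n = 3). Single Kdm6b libraries (2.56 to 2.90) and Med13l female 3 (2.50) lay within or next to the Ash1l range of 2.22 to 2.66. This ratio was chosen after both genes were seen to change, so it is given as a description.

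**Figure D3:**
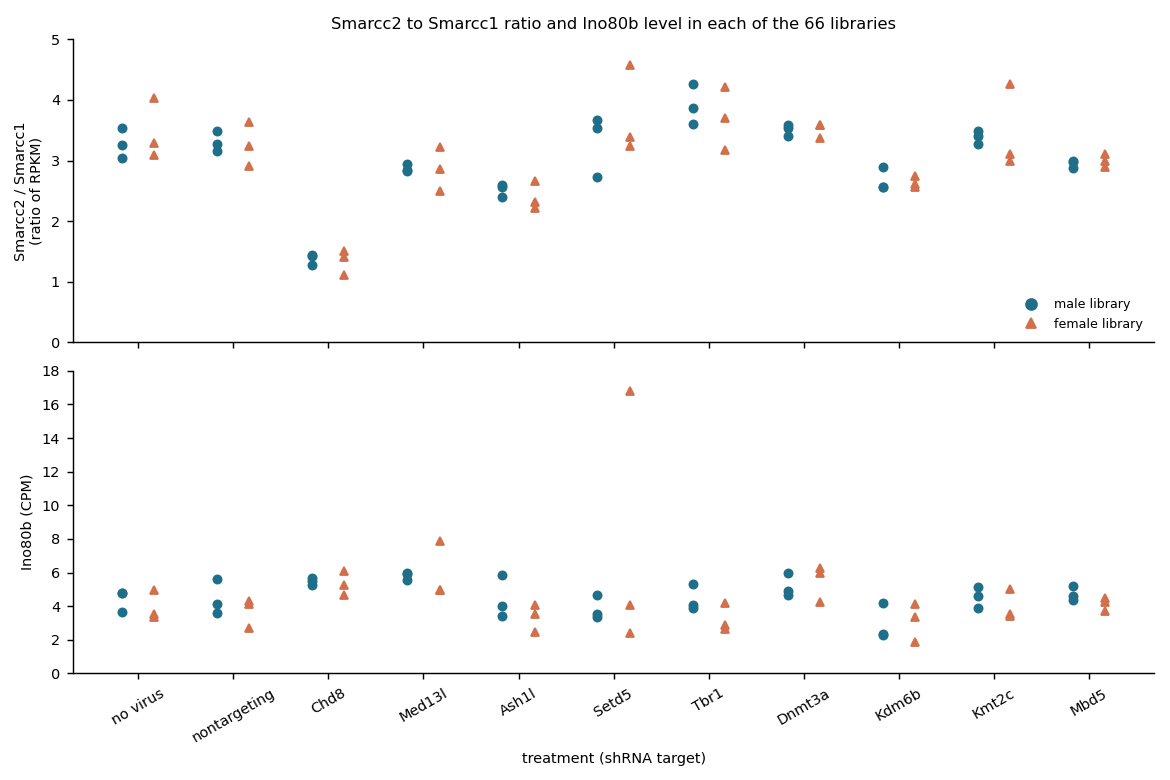
Ratio of Smarcc2 to Smarcc1 (RPKM over RPKM, upper panel) and Ino80b level (CPM, lower panel) in all 66 libraries by treatment, with circles for male and triangles for female libraries. The 6 Chd8 libraries lie at 1.11 to 1.51 in the upper panel, and 1 Setd5 female library lies at 16.8 CPM in the lower panel.

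Smarcal1 and Chd1l, remodellers known from DNA repair, moved in opposite directions with Chd8 shRNA. Smarcal1 (chr1:72583251-72633134) stood at 44.0, 46.3 and 49.1 CPM in nontargeting males and 40.8, 46.2 and 41.4 in nontargeting females. It stood at 29.9, 27.9 and 29.9 in Chd8 males and 21.5, 28.8 and 25.4 in Chd8 females. Every Chd8 library was below every nontargeting library. The log2 fold change was -0.67 (SE 0.121) in males and -0.76 (SE 0.122) in females, with edgeR adjusted p of 9.0e-05 and 1.2e-05.

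Chd1l (chr3:97560742-97610203) had low counts, 64 to 357 per library over the series. It measured 4.12, 3.16 and 3.25 CPM in nontargeting males and 4.37, 4.58 and 3.88 in nontargeting females. It measured 6.87, 5.66 and 8.52 in Chd8 males and 10.5, 5.95 and 8.38 in Chd8 females. All Chd8 libraries were higher than all nontargeting libraries, with the widest scatter in females. The log2 fold change was 1.0 (SE 0.194) in males and 0.95 (SE 0.193) in females, with edgeR adjusted p of 2.5e-04 and 4.6e-04. The calls of Smarcc1, Smarcc2, Smarcal1 and Chd1l with Chd8 shRNA held in both sexes under the 7 other settings tried and without any 1 library. Chd1l also rose with Med13l shRNA in males, where it measured 5.62, 4.88 and 6.61 CPM (log2 fold change 0.70, edgeR adjusted p 0.0148). Med13l females measured 5.39, 4.82 and 7.53 CPM (log2 fold change 0.47, edgeR adjusted p 0.111). The Med13l male call was lost without Med13l male 3 (edgeR adjusted p 0.12), nontargeting male 2 (0.0829) or nontargeting male 3 (0.0821).

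Atrx (chrX:105797615-105929403) fell in 3 comparisons, both sexes of Chd8 shRNA and females of Med13l shRNA. It stood at 304, 303 and 310 CPM in nontargeting males and 266, 316 and 259 in nontargeting females. It stood at 200, 203 and 210 in Chd8 males and 187, 197 and 166 in Chd8 females, so the groups did not overlap. On the log2 scale males changed by -0.58 (SE 0.180, edgeR adjusted p 0.0291) and females by -0.61 (SE 0.180, edgeR adjusted p 0.0201). With Med13l shRNA it stood at 228, 233 and 228 in males (log2 fold change -0.41, edgeR adjusted p 0.161) and 142, 225 and 174 in females (log2 fold change -0.64, edgeR adjusted p 0.0147). The call in Chd8 males was lost when any 1 of its 6 libraries was left out, with edgeR adjusted p of 0.0667 to 0.0924. The call in Chd8 females was lost without Chd8 female 1 (0.0794), Chd8 female 3 (0.0967) or nontargeting female 2 (0.0991). The call in Med13l females was lost without Med13l female 1 (0.218), Med13l female 3 (0.058) or nontargeting female 2 (0.105).

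Dpf2 and Smarcd2, BAF subunits whose paralogues Dpf1 and Smarcd1 were higher in these cells, passed in females of the Chd8 knockdown, and in males with the replicate block or DESeq2. Dpf2, a reader of histone acylation, measured 24.0, 39.4 and 33.8 CPM in nontargeting females and 50.0, 49.6 and 50.1 in Chd8 females (log2 fold change 0.62, SE 0.172, edgeR adjusted p 0.0129). Chd8 males measured 53.7, 50.4 and 40.8 against 36.7, 34.8 and 31.7, also without overlap (log2 fold change 0.49, edgeR adjusted p 0.0606, and 0.00225 with the replicate number as a block). Smarcd2 measured 7.55, 6.30 and 8.09 in nontargeting females and 16.1, 9.99 and 11.0 in Chd8 females (log2 fold change 0.76, SE 0.215, edgeR adjusted p 0.015). In males it measured 10.3, 11.3 and 13.1 against 6.32, 8.76 and 7.73 (log2 fold change 0.60, edgeR adjusted p 0.0648, and 0.0146 with the block). DESeq2 called both in males (DESeq2 adjusted p 0.0317 for Dpf2 and 0.0364 for Smarcd2). The Dpf2 call was lost without Chd8 female 1 (edgeR adjusted p 0.0566) or nontargeting female 1 (0.157), and the Smarcd2 call without Chd8 female 1 (0.243) or nontargeting female 2 (0.0857). Without Chd8 female 1, 4 members were called in females. For all genes the share called without that library is not given here, so this count is not read as a trait of the members.

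The other 40 members did not pass in either sex of the Chd8 knockdown in this fit. Replicate numbers deviated together there. With the number as a block 13 members (27.7%) were called in each sex, where 22.1% of all genes in males and 21.1% in females were called. In both sexes the block added Smarcd1 (log2 fold change 0.35 in males and 0.26 in females), the NuRD ATPases Chd4 (-0.39 and -0.41) and Chd3 (-0.27 and -0.26), and Smarca4 (-0.25 and -0.29). In nontargeting cells Chd4 stood at 118, 122 and 144 CPM in males and 94.4, 146 and 107 in females. In Chd8 cells it stood at 89.8, 85.5 and 119 in males and 67.9, 110 and 83.5 in females. Within each replicate number the Chd8 library was lower, while the groups of each sex overlapped.

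**Figure D4:**
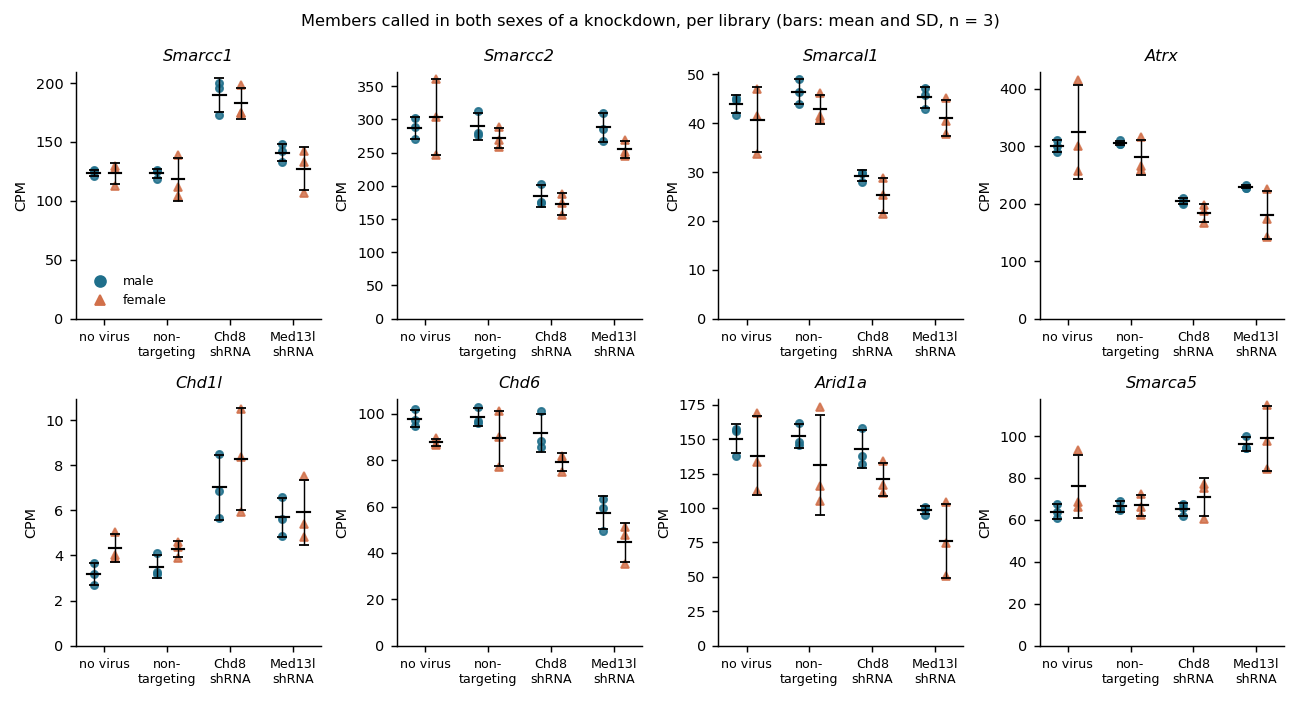
Levels (CPM) of the 8 members called in both sexes of the Chd8 or Med13l knockdown, in no virus, nontargeting, Chd8 shRNA and Med13l shRNA libraries. Points are libraries (circles male, triangles female) with mean and SD of 3; Smarcc1 is higher and Smarcc2, Smarcal1 and Atrx lower in Chd8 libraries than in nontargeting ones, while Chd6 and Arid1a have their lowest means in Med13l libraries.

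With Med13l shRNA, Chd6 and Arid1a fell and Smarca5 rose in both sexes. Chd6 (chr2:160946978-161109075), a CHD ATPase outside NuRD, stood at 96.8, 96.0 and 103 CPM in nontargeting males and 77.2, 101 and 89.9 in nontargeting females. It stood at 63.4, 59.2 and 49.5 in Med13l males and 35, 51.0 and 47.7 in Med13l females. The highest Med13l library was below the lowest nontargeting one. On the log2 scale males changed by -0.78 (SE 0.130, edgeR adjusted p 3.1e-05) and females by -1.0 (SE 0.131, edgeR adjusted p 2.4e-07). These calls held without any 1 library. Chd8 libraries gave -0.11 and -0.17 for the same gene (edgeR adjusted p 0.711 and 0.504).

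Arid1a (chr4:133679008-133756769), the large DNA-binding subunit that marks canonical BAF, fell with Med13l shRNA as well. It measured 146, 148 and 162 CPM in nontargeting males and 105, 173 and 116 in nontargeting females. With Med13l shRNA it measured 101, 94.9 and 99.5 in males and 50.3, 104 and 74.3 in females. On the log2 scale males changed by -0.62 (SE 0.198, edgeR adjusted p 0.0395) and females by -0.78 (SE 0.199, edgeR adjusted p 0.00631). In females replicate 2 was high in both groups and replicate 1 low in both. The male call was lost when any 1 of its 6 libraries was left out (edgeR adjusted p 0.0757 to 0.14), and the female call without Med13l female 1 (0.164) or nontargeting female 2 (0.144).

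Smarca5 (chr8:80698507-80739497), an ISWI ATPase, stood at 69.2, 64.5 and 65.5 CPM in nontargeting males and 66.3, 72.3 and 62.4 in nontargeting females. With Med13l shRNA it stood at 94.5, 100 and 94.2 in males and 115, 97.5 and 84.3 in females, above all nontargeting libraries. On the log2 scale males changed by 0.54 (SE 0.170, edgeR adjusted p 0.0386) and females by 0.56 (SE 0.170, edgeR adjusted p 0.0242). The male call was lost without any 1 library (edgeR adjusted p 0.074 to 0.12). The female call was lost without Med13l female 1 (0.224), nontargeting female 1 (0.0598) or nontargeting female 3 (0.0897). Smarca5-ps is, by its name and annotation, a processed pseudogene of Smarca5, and how reads that match both were counted is not given in the sources used here. It fell in Med13l females, from 2.56, 1.21 and 1.81 to 0.722, 1.14 and 0.548 CPM (log2 fold change -1.20, edgeR adjusted p 0.0456), and that call was lost without Med13l female 1, Med13l female 3, nontargeting female 1 or nontargeting female 3 (edgeR adjusted p 0.0785 to 0.204).

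A further 4 members passed in 1 sex of the Med13l knockdown in the fit without the block, beside Chd1l, Atrx and Smarca5-ps. In males Arid5b, an ARID protein outside BAF, fell from 38.1, 35.9 and 53.2 CPM to 15.8, 17.7 and 15.1 (log2 fold change -1.39, SE 0.456, edgeR adjusted p 0.0476). Females measured 5.48, 26.0 and 11.9 against 18.6, 53.8 and 28.0, each library below the control of its number. There the log2 fold change was -1.21 without the block, with an edgeR adjusted p of 0.0781, and -1.28 with it, with 2.6e-04. DESeq2 also called Arid5b in females (DESeq2 adjusted p 0.0421). In females Srcap, which exchanges H2A.Z into nucleosomes, fell from 3.62, 5.10 and 3.64 CPM to 1.4, 1.99 and 1.65 (log2 fold change -1.30, SE 0.368, edgeR adjusted p 0.0151). Males measured 2.54, 2.71 and 3.62 against 5.46, 5.79 and 7.03 (log2 fold change -1.04, edgeR adjusted p 0.0606, DESeq2 adjusted p 0.0365). Neither Arid5b in males nor Srcap in either sex overlapped between groups.

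Dpf2 rose in Med13l females, to 44.5, 54.6 and 55.3 CPM (log2 fold change 0.67, SE 0.172, edgeR adjusted p 0.00717), with 54.9, 49.2 and 43.2 in Med13l males (log2 fold change 0.51, edgeR adjusted p 0.0536, DESeq2 adjusted p 0.0312). Chd1, a remodeller tied to transcription elongation, rose in Med13l females from 50.4, 50.0 and 50.7 to 76.2, 57.5 and 60.1 (log2 fold change 0.36, SE 0.106, edgeR adjusted p 0.0205). Leaving out Med13l female 1 removed the Chd1 call (edgeR adjusted p 0.34) and the Srcap call (0.122). The Chd1 call was also lost without nontargeting female 2 (0.0765), the Srcap call without Med13l female 3 (0.0572) or nontargeting female 2 (0.104), and the Dpf2 call without nontargeting female 1 (0.0831). The Arid5b call in males was lost without any 1 library (edgeR adjusted p 0.0642 to 0.187).

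The number of members called in Med13l females depended on single libraries more than in the other groups. It was 8 with all libraries, 2 without Med13l female 1, 18 without Med13l female 2, 5 without Med13l female 3 and 4 without nontargeting female 2. Med13l female 1 held the lowest value of all 66 libraries for 14 of the 47 members and the highest for 4. In Med13l males 1 or 2 members were called when a library was left out. The shares of all genes called without a library, or lowest in a library, are not given here. These counts are therefore not read as a trait of the members. Replicate numbers deviated together in Med13l females, and with the number as a block 21 members (44.7%) were called there, where 27.9% of all genes were. Those the block added included Arid1b (log2 fold change -0.58), Arid2 (-0.58), Ino80d (-0.62), Ep400 (-0.55) and Actl6a (0.54). Without the block, 19 members (40.4%) had an unadjusted p under 0.05 in Med13l females, against 24.6% of all genes.

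**Figure D5:**
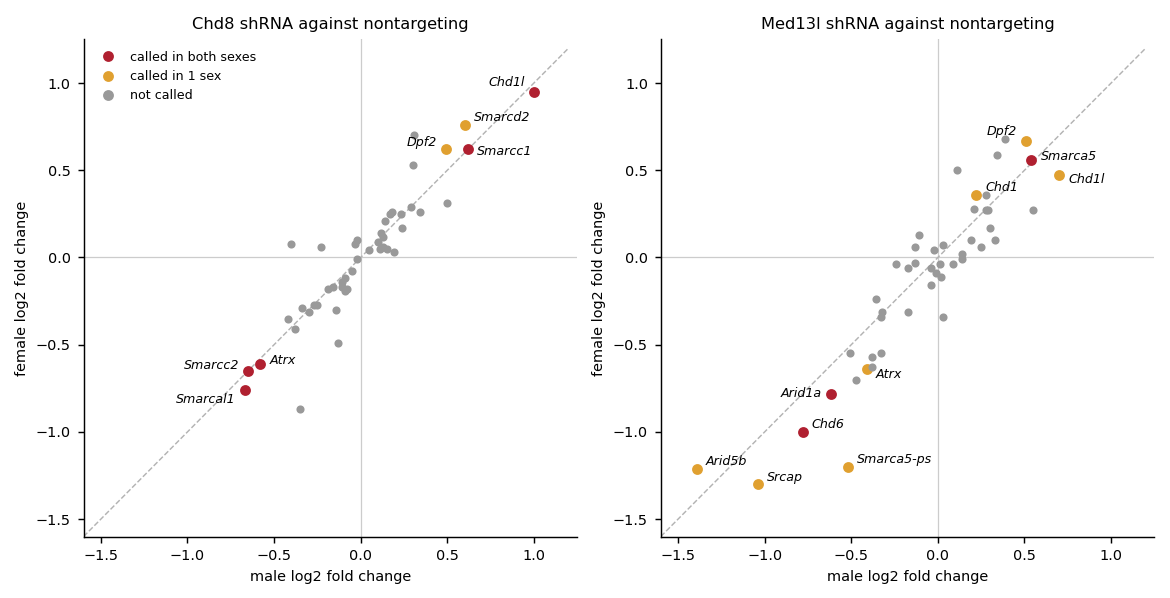
Log2 fold change of each of the 47 members in females (y axis) against males (x axis) for Chd8 shRNA (left) and Med13l shRNA (right), each against nontargeting cells of that sex. Named points were called without the replicate block in both sexes (red) or 1 sex (orange). The sign is the same in both sexes for 43 members with Chd8 shRNA and 39 with Med13l shRNA, and agreement over all genes is not given here.

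The 2 sexes, which share no libraries, gave like changes. The sign agreed for 43 of 47 members with Chd8 shRNA and 39 of 47 with Med13l shRNA, and for all 7 and all 10 members called in either sex. Agreement over all genes is not given here, so these counts are not read as a trait of the members. An interaction test of sex and knockdown called 0 members for any of the 9 targets, and 1 member, Ino80b with Setd5 shRNA, had an unadjusted p under 0.05 in edgeR. DESeq2 called 0 members in these tests too. For Smarcc2 with Chd8 shRNA the male effect minus the female effect was 0.00 (SE 0.164), and for Chd6 with Med13l shRNA it was 0.22 (SE 0.183). Of all genes, 0.0186% were called in this test for Setd5 and 0% for the other 8 targets.

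Chd8 and Med13l shRNA were also compared directly, which leaves the shared controls out. In males 10 members differed (21.3%, against 19.4% of all genes), 6 higher and 4 lower with Chd8 shRNA, where 9.63% of all genes were higher and 9.76% lower. In females 11 differed (23.4%, against 21.9%), 7 higher and 4 lower, where 9.97% of all genes were higher and 11.9% lower. With the replicate block, for numbers that deviated together in both sexes, 20 members were called in males (42.6%, against 34.5% of all genes). In females 26 were called with it (55.3%, against 38.6%).

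The BAF scaffold pair, Smarcal1, Chd6, Smarca5, Smarcad1 and Arid5b separated the 2 knockdowns in both sexes. As log2 of Chd8 over Med13l, Smarcc2 was -0.64 in males and -0.56 in females (edgeR adjusted p 3.9e-05 and 2.4e-04). Smarcc1 was 0.43 and 0.52 (edgeR adjusted p 0.0122 and 0.00172). Smarcal1 was -0.63 and -0.70 (edgeR adjusted p 9.9e-05 and 1.9e-05), and Chd6 was 0.67 and 0.83 (edgeR adjusted p 1.1e-04 and 3.4e-06). Smarca5 was -0.57 and -0.48 (edgeR adjusted p 0.0132 and 0.0332), and Arid5b 1.51 and 1.35 (edgeR adjusted p 0.0137 and 0.0259).

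Smarcad1, a remodeller known for chromatin behind replication forks, differed between the knockdowns, at 0.49 in males and 0.56 in females (edgeR adjusted p 0.00685 and 0.00176). Against nontargeting cells it was not called without the block, and with it Smarcad1 was lower in Med13l females (-0.31, edgeR adjusted p 0.0246). Smarcd1 (0.51, edgeR adjusted p 0.00369), Chd3 (-0.41, 0.014) and Ino80c (0.42, 0.0399) passed in males. Ino80d (0.89, edgeR adjusted p 0.00235), Dpf1 (-0.54, 0.00554), Arid2 (0.69, 0.00737) and Arid1a (0.66, 0.0119) passed in females. Without Med13l female 1 the female count was 5, and without Med13l female 2 it was 18. For all genes the shares called without these libraries are not given here, so the counts are not read as a trait of the members. The Ino80c call was lost without any 1 library (edgeR adjusted p 0.0808 to 0.111). Smarcc2, Smarcal1 and Chd6 in both sexes, Smarcc1 in females and Smarcd1 and Smarcad1 in males differed without any 1 library.

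The remaining calls between Chd8 and Med13l shRNA each needed certain libraries. In males, by edgeR adjusted p, Smarcc1 was lost without Chd8 male 3 (0.0587) or Med13l male 2 (0.0622), and Smarca5 without Chd8 male 3 (0.0582). Arid5b was lost without Med13l male 1 (0.0501) or 3 (0.0537), and Chd3 without Chd8 male 1 (0.0568), Chd8 male 2 (0.0884) or Med13l male 3 (0.0816). In females, by the same measure, Smarcad1 was lost without Chd8 female 1 (0.057), and Smarca5 without Chd8 female 3 (0.159) or Med13l female 1 (0.225). Without Med13l female 1, Arid2 (0.122), Dpf1 (0.0613), Ino80d (0.0562), Arid1a (0.188) and Arid5b (0.211) were also lost. Without Chd8 female 2, Arid1a (0.0559) and Arid5b (0.127) were lost, as was Arid5b without Med13l female 3 (0.0996).

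Ash1l, Dnmt3a, Kdm6b, Kmt2c, Mbd5, Setd5 and Tbr1 shRNA gave 0 members called with edgeR in the 14 comparisons. Between 0 and 6 of 47 members (0% to 12.8%) had an unadjusted p under 0.05 in each, against 2.46% to 16.2% of all genes. The member share was 12.8% against 11.3% in Ash1l males and 12.8% against 4.95% in Kmt2c females. In Setd5 females it was 6.38% against 16.2%. Of all genes, 1.98% and 1.10% were called with Ash1l shRNA in males and females, and 0.0557% and 3.12% with Setd5 shRNA. The shares were 0.111% and 0.118% with Dnmt3a shRNA, 0.0867% and 0% with Kdm6b shRNA, 0.0867% and 0.0991% with Kmt2c shRNA, 0.0619% and 0.0557% with Mbd5 shRNA and 0.217% and 0.0619% with Tbr1 shRNA, each in males and females. DESeq2 called Smarcc2 in Ash1l females (-0.42 on the log2 scale, DESeq2 adjusted p 0.0307) and Chd1 and Ino80b in Setd5 females (adjusted p 0.0422 and 0.0294), and no member in the other comparisons of these 7 targets.

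Several smaller shifts passed once the replicate number was a block, in groups whose numbers deviated together. Smarcc2 measured 165, 252 and 197 CPM in Ash1l females against 269, 288 and 258, with a blocked log2 fold change of -0.41 (edgeR adjusted p 0.00198). Ash1l males measured 210, 216 and 250 against 277, 279 and 313, below all controls (log2 fold change without the block -0.36, edgeR adjusted p 0.105). Smarca1 was at 66, 61.1 and 68.3 CPM in Ash1l females against 98.3, 81.4 and 96.0, with a blocked log2 fold change of -0.49 (edgeR adjusted p 0.00336), and 4.43% of all genes were called in that blocked comparison.

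Smarcd1 was higher with Dnmt3a shRNA in both sexes with the block, by 0.37 on the log2 scale in males and 0.43 in females (edgeR adjusted p 0.00883 and 0.0013). It stood at 149, 145 and 165 CPM in Dnmt3a males and 147, 160 and 154 in Dnmt3a females, above all nontargeting libraries of the same sex at 112, 113 and 131 and 109, 129 and 106. Of all genes, 1.46% and 1.29% were called in these blocked comparisons. Arid1b, the alternative to Arid1a in BAF, was lower with Tbr1 shRNA in both sexes with the block, by -0.59 and -0.45 (edgeR adjusted p 0.00207 and 0.0496), where 1.75% and 0.898% of all genes were called. It measured 95.5, 87.0 and 99.4 CPM in Tbr1 males against 145, 127 and 154, and 61.2, 104 and 88.2 in Tbr1 females against 86.6, 161 and 104. Single further members were called with the block for Chd4 in Dnmt3a females (0.42) and Arid1a in Kmt2c females (-0.51), where 1.29% and 1.09% of all genes were called. Setd5 females gave 4, Chd1 (0.31), Dpf3 (-0.97), Arid5a (-0.93) and Ino80b (1.01), where 13.0% of all genes were called.

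The Ino80b value in Setd5 females came from 1 library. Ino80b (chr6:83121765-83125431), a small subunit of the INO80 complex, stood at 16.8, 4.10 and 2.40 CPM there, from 549, 71 and 32 counts. In nontargeting females it stood at 4.29, 2.70 and 4.15 CPM. The highest value in the other libraries of the series was 7.90 CPM, in Med13l female 1. On the log2 scale the group changed by 1.10 (SE 0.348, edgeR adjusted p 0.0665). Without Setd5 female 1 the change was -0.18 (edgeR adjusted p 0.958), and without Setd5 female 2 or 3 it was 1.41 and 1.52 (edgeR adjusted p 0.00917 and 0.00561). Setd5 female 1 also held the lowest value of the series for 4 members, among them Arid5a at 7.77 CPM and Dpf3 at 1.04 CPM. The other libraries of its group held 50.5 and 19.4 CPM of Arid5a, and 7.39 and 3.23 of Dpf3. For all genes the share lowest in Setd5 female 1 is not given here, so this count is not read as a trait of the members.

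Virus and sex left the members without a call. Nontargeting and no virus cells differed in 0 of 47 members in either sex with edgeR and with DESeq2. At an unadjusted p under 0.05 edgeR had 0 members in males and 1 in females, Arid4a (log2 fold change -0.39), and 0.502% and 1.15% of all genes. Of all genes 0% were called. Between nontargeting males and females 0 members were called by either tool, 0 had an unadjusted p under 0.05, and 0.0434% of all genes were called. The X-linked members gave male minus female differences of 0.12 (SE 0.179) for Atrx and -0.09 (SE 0.157) for Smarca1.

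The members varied little within groups as a rule. Their median biological coefficient of variation was 16.8%, against 20.3% over all genes, and 35 of 47 were below that median. Chd1 was the steadiest at 9.48%. The 4 above 30% were Dpf3 (31.0%), Arid5b (37.5%), Arid5a (40.8%) and Smarce1-ps1 (46.2%), the last with 0 to 34 counts per library. Part of this spread followed the replicate number. In females, 21 members deviated the same way from their group mean in all 11 groups in replicate 1 (7 above, 14 below) and 18 in replicate 2 (11 above, 7 below), against 1 in replicate 3. Arid5a averaged -0.77 on the log2 scale in female replicate 1 and 0.67 in female replicate 2, and Smarcd3 averaged 0.45 and -0.44. In males the counts were 0, 5 and 11, and Smarca2 averaged 0.30 and Chd4 0.25 in male replicate 3. The share of all genes that deviated 1 way is not given here. Over all tested genes, female deviations correlated with the nontargeting ones at 0.334 to 0.524 in replicate 1 and 0.456 to 0.655 in replicate 2. The pattern was thus not particular to the members. What the replicate numbers stand for beyond the order of replicates is not given in the labels.

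Some subunits of the same complexes outside the naming rule were called with Chd8 and Med13l shRNA. Of 60 such genes, 7 were called in Chd8 males (5 rose, 2 fell; 11.7%, against 9.82% of all genes) and 4 in Chd8 females (4 rose; 6.67%, against 9.33%). In both sexes Ss18, a BAF subunit that neurons replace with a paralogue, rose by 1.16 and 1.02 on the log2 scale (edgeR adjusted p 2.5e-04 and 0.00141). The BAF subunit Bcl7a rose by 0.77 and 0.67 (edgeR adjusted p 0.00148 and 0.00698). Ing3 (0.55 and 0.59) and Brd8 (0.32 and 0.30), both of the Ep400 complex, rose as well. With Med13l shRNA 10 were called in males (5 rose, 5 fell; 16.7%, against 8.06%) and 14 in females (7 rose, 7 fell; 23.3%, against 10.2%), and 8 of them in both sexes. Rsf1, a partner of Smarca5, fell by 0.71 and 0.88 on the log2 scale (edgeR adjusted p 9.4e-04 and 4.7e-05). Yeats4, a histone reader of the Srcap and Ep400 complexes, fell by 0.91 and 0.85 (edgeR adjusted p 6.6e-04 and 0.00131). Bicral (-0.50 and -0.57), of a BAF variant, fell, and Meaf6 (0.36 and 0.31), Brd7 (0.38 and 0.49) and Rbbp7 (0.33 and 0.38) rose. In the other comparisons Znhit1 fell in Ash1l males (-0.63), Bcl7c in Tbr1 males (-0.81), and Mta2 rose in Setd5 females (0.42).

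Neuron markers summed to 4154 to 4845 CPM in Chd8 libraries and 3558 to 4235 in Med13l libraries, below the 4756 to 5415 of nontargeting libraries but for 1 Chd8 male library. Of the 5 markers only Syt1, a synaptic vesicle protein, was called in these groups: it fell by 0.94 and 0.90 on the log2 scale with Chd8 shRNA and by 2.52 and 2.16 with Med13l shRNA in males and females. Without Syt1 the sums were 3589 to 4264 with Chd8 shRNA, 3453 to 4053 with Med13l shRNA and 3748 to 4110 in nontargeting libraries. The 5 markers of endothelial cells and fibroblasts summed to 11.2, 12.4 and 11.9 CPM in Chd8 males and 14.7, 7.74 and 15.9 in Chd8 females, all below each of the 6 nontargeting libraries, whose highest sum was 48.5, and 0 of the 4 tested were called. With Med13l shRNA they summed to 15.4 to 22.9 in males and 13.9 to 32.5 in females. The 5 markers of dividing cells summed to 74.5, 69.8 and 78.1 CPM in Med13l males, above the 46.2, 54.2 and 44.1 of nontargeting males. Med13l females held 114, 52.0 and 80.4, each above the nontargeting library of its number at 74.6, 35.7 and 60.5. In Chd8 libraries they summed to 56.3 to 59.7 in males, also above all nontargeting males, and 46.0 to 83.8 in females. Of these 5, only Top2a was called, in Med13l males, where it fell (2.79 to 0.540 CPM) against the direction of the sum. Astrocyte markers summed to 50.5 to 115 CPM in Chd8 males and 36.7 to 85.6 in Chd8 females, the latter below the 93.5 to 115 of nontargeting females. They summed to 65.9 to 165 in Med13l males and 66.7 to 110 in Med13l females, with 59.1 to 110 in nontargeting males. Oligodendrocyte lineage markers summed to 23.4 to 35.9 CPM in these groups, against 28.2 to 38.3 in nontargeting libraries. Markers of microglia stayed between 0.374 and 3.25 CPM in all 66 libraries, and Cx3cr1, P2ry12, Csf1r and C1qa were at 0 in at least 1. The part of these shifts in the member changes was not tested, and in bulk samples fewer cells of a type and less RNA per cell cannot be told apart.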

How the data were processed

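The authors deposited 1 table of read counts per gene, whole numbers and not normalized, made with STAR and featureCounts on mm10 per the submitters' processing notes, from stranded polyadenylated RNA libraries per the labels' protocols. Versions and the strand setting are not given in the sources used here. Of 72 library columns 6 were not used. Rows without a symbol (18483 of 48716, 0.69% to 1.41% of counts) were left out, and 149 rows that repeated a symbol were summed. Odd values made up 26.7% of counts from 1 to 20 but 49.1% of counts of at least 1000, a sign that read pairs may have been counted by mate, so halved counts were tried. Columns named for a luciferase hairpin were taken as the nontargeting group.

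Counts were fitted with edgeR 4.0.16 in R 4.3.3 (TMM factors 0.874 to 1.06, filterByExpr, robust quasi-likelihood, 1 mean per group over 66 libraries, 22 groups), with Benjamini-Hochberg adjustment over 16145 genes per comparison and a threshold of 0.05. DESeq2 1.42.0 and the other alternatives are in the closing section. CPM used TMM-scaled totals, and RPKM divided them by the union exon length of GENCODE M21. All 48 members matched 1 GENCODE gene, and 37 had a RefSeq promoter. On simulated data for Chd8 males (16145 genes), 2.9% of 68 genes changed 1.3-fold were recovered. Recovery was 27.3% of 66 genes changed 1.5-fold and 50% of 66 changed 2-fold, with 4 unchanged genes called. Far fewer genes were changed there than the 1585 called in the real comparison, and the adjusted p depends on that number. These rates are therefore not those of the real comparison. Replicates of a group differed by more than sampling noise (chi-square per gene 7.92 to 386).

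Replicate numbers were taken to pair libraries where deviations from group means correlated above 0.1 for all 3 numbers. This held with nontargeting males for Chd8, Dnmt3a, Kmt2c, Mbd5, Setd5 and Tbr1, with nontargeting females for all targets but Kdm6b, and for Chd8 with Med13l in both sexes. Members named with values were the ATPases, the exchanged BAF subunits, members called in both sexes of a knockdown, in at least 3 comparisons or between Chd8 and Med13l shRNA, Ino80b, and at most 6 other subunits per knockdown called in both sexes. Others named, such as those called in 1 sex, with the replicate block or by DESeq2, were chosen after their values were seen. The members and lists were chosen with earlier results of these data known.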

Additional observations from a re-analysis of the deposited data

How the results depend on the processing

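Member counts moved most with the replicate number as a block: in males to 13 (Chd8), 14 (Med13l, numbers not paired), 4 (Ash1l, not paired), 3 (Kdm6b, not paired), 1 (Dnmt3a) and 1 (Tbr1), in females to 13 (Chd8), 21 (Med13l), 2 (Ash1l), 2 (Dnmt3a), 1 (Kmt2c), 4 (Setd5) and 1 (Tbr1), and between Chd8 and Med13l to 20 and 26. The block changed no other count. It called 23.8% of all genes in Med13l males (29.8% of members) and 8.27% in Ash1l males (8.51% of members). In Kdm6b males it called 517 of 16145 genes and 3 of 47 members (6.38%), too few members to read as a trait of them. Shares of all genes for the other comparisons that the block moved are given above. Fitting each sex separately, with fewer libraries behind the spread, gave 8 (Chd8), 13 (Med13l), 1 (Ash1l), 2 (Kdm6b) and 1 (Tbr1) in males and 4 (Chd8) and 1 (Med13l) in females. Of all genes, the separate fits called 17.9% (Chd8), 18.8% (Med13l) and 1.14% to 5.75% (Ash1l, Kdm6b and Tbr1) in males. In females they called 4.81% (Chd8) and 4.42% (Med13l) of all genes. These shares moved the same way as the member counts, which are therefore not read as a trait of the members. DESeq2 gave 1 in Ash1l females and 2 in Setd5 females, and no virus as control 2 in Ash1l females. No filter gave 2 in Med13l males, and halved counts 1 in Setd5 females. Of all genes, DESeq2 called 1.63% in Ash1l females and 4.69% in Setd5 females, and no virus as control 1.62% in Ash1l females. Without the filter 961 of 24041 genes were called in Med13l males, and with halved counts 3.13% in Setd5 females. These few member calls are likewise not read as a trait of the members. RLE size factors kept all counts within 1.5 times. Leaving out 1 library gave 4 to 7 in Chd8 females, 1 to 2 in Med13l males, 2 to 18 in Med13l females, 0 to 1 in Ash1l females, 0 to 3 in Setd5 females and 5 to 18 between the knockdowns in females. The shares of all genes called in the fits without 1 library are not given here. The causes were not tested. Of 46 member calls, 0 reversed in any setting. Of 259 values under other settings 24 lost significance, and of 276 with 1 library left out 77 did. Separate fits per sex ended the female calls of Atrx, Dpf2 and Smarcd2 (Chd8) and all but Chd6 (Med13l). No filter ended Atrx in Chd8 males, Arid1a, Arid5b and Smarca5 in Med13l males, Chd1 and Smarca5-ps in Med13l females, and Chd3, Ino80c (males) and Arid5b (females) between knockdowns. No virus as control ended Smarcd2 in Chd8 females, Arid5b in Med13l males and Chd1 and Smarca5 in Med13l females, and halved counts Smarca5-ps. Low counts kept Arid3c from being tested, and they limit the precision for Arid3b, Chd1l, Ino80b, Ino80dos, Srcap and the pseudogenes.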
